A study of Rattus norvegicus with 64 samples.

Results

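Transcripts in the circulating whole blood of saline-injected rats kept at 39 °C, an exposure the submitters call environmentally induced hyperthermia, were compared with those of saline-injected control rats kept at 22.5 °C. All 16 saline rats labelled as exposed to the hot environment and all 6 saline control rats at room temperature in this series were taken, which gave 22 of the 64 rats in the series. Both groups were adult male Sprague-Dawley rats, 85 to 90 days old, that received 4 injections of saline at intervals of 2 h. Blood was drawn by cardiac puncture 3 h after the last injection and frozen at once, alpha and beta globin mRNA was depleted from the total RNA, and polyadenylated RNA was sequenced. The 39 °C rats carry the replicate numbers 1 to 16 and the controls the numbers 17 to 22, and each replicate is 1 animal. The remaining 42 rats of the series received amphetamine (AMPH) or were kept in a cool environment, and they entered only the fits with sequencing project as a term and the levels given for comparison.

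Cells exposed to temperatures above their normal range activate heat shock factor 1, which binds heat shock elements in DNA and switches on the genes of molecular chaperones. Chaperones of the Hsp70 and Hsp110 families hold and refold unfolded proteins with the help of J-domain partners, Hsp90 and its co-chaperones mature signalling proteins, and Hsp60 with Hsp10 folds proteins inside mitochondria. Whole blood holds RNA of leukocytes, platelets and reticulocytes, the young red cells that still carry mRNA, so its profile reports both transcription within cells and the makeup of the blood. In these bulk samples, fewer cells of a type and less RNA per cell cannot be told apart.

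The number of counted reads was 21348453 to 39567428 per 39 °C rat and 24355269 to 39023933 per control, and the values below are counts divided by a size factor for each rat, called normalized counts, which compare 1 gene between rats but not genes of different length. The 39 °C rats came from 8 sequencing projects and the controls from 2 others, as coded in the file names, so that group and project cannot be told apart among these 22 rats. A second fit over all 64 rats therefore held project as a term. In it, the AMPH rats sequenced beside either group linked the projects, under the assumption that project effects were the same in every group. Some libraries stood apart. Control replicates 20 and 22 and 39 °C replicate 12 held more than 5000 counts of Mb, the oxygen store of heart and skeletal muscle. Control replicate 19 had the highest level of Csf3r, a neutrophil receptor, among controls at 1062 CPM, counts scaled to a library of equal size, against 214 to 343 CPM in the other 5, and AMPH replicate 17, sequenced in the same project, had 363 CPM against 451 to 2113 CPM in the other 21 AMPH rats at 22.5 °C. For Il1r2, a decoy receptor of interleukin 1, control 19 had 553 CPM against 42.1 to 308 CPM in the other controls, and AMPH 17 had 63.7 CPM against 442 to 1655 CPM in the other AMPH rats. For Nos2 at ENSRNOG00000011023, the inducible nitric oxide synthase, the same 4 values were 116, 8.94 to 44.9, 17.2 and 35.8 to 454 CPM. In the T-cell gene Cd3e they were 64.2, 68.3 to 143, 149 and 6.22 to 59.5 CPM, so that control 19 lay between the groups and AMPH 17 above every other rat of the 2 groups. For the Hsp110 gene Hsph1, control 19 at 19.3 and AMPH 17 at 28.3 CPM both lay within the range of the other controls, 18.6 to 32.3 CPM, and the other AMPH rats had 28.3 to 5419 CPM. The 39 °C replicates 2, 9 and 12 were high in transcripts of the liver, described at the end. The source of the liver and muscle transcripts was not tested, nor was whether the libraries of control 19 and AMPH 17 had been exchanged, and the labels were kept.

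In the comparison of the 2 groups, 12811 genes passed the filter on low counts, 1924 (15.0%) were called higher and 1767 (13.8%) lower at 39 °C, together 28.8% of them, at an adjusted p below 0.05 and a log2 fold change beyond 0.58 in edgeR's quasi-likelihood test. The common biological coefficient of variation was 0.503. In 138 tested genes (1.08%) every 39 °C rat lay above every control, and in 186 (1.45%) every 39 °C rat lay below every control. With project as a term, 793 of 13785 genes (5.75%) were called higher and 541 (3.92%) lower, together 9.68%. Of these, 718 higher and 441 lower genes were called in the same direction in both fits, and no gene was called in opposite directions. Without the 2 controls above 5000 Mb counts, 950 of 12555 genes (7.57%) were called higher and 1147 (9.14%) lower, together 16.7%. Without control replicate 19, 1898 of 12754 genes (14.9%) were called higher and 1888 (14.8%) lower, together 29.7%. Without AMPH replicate 17 and control replicate 19, the fit with project as a term called 1715 genes higher (12.5% of 13731) and 1681 lower (12.2%), together 24.7%.

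**Figure D1:**
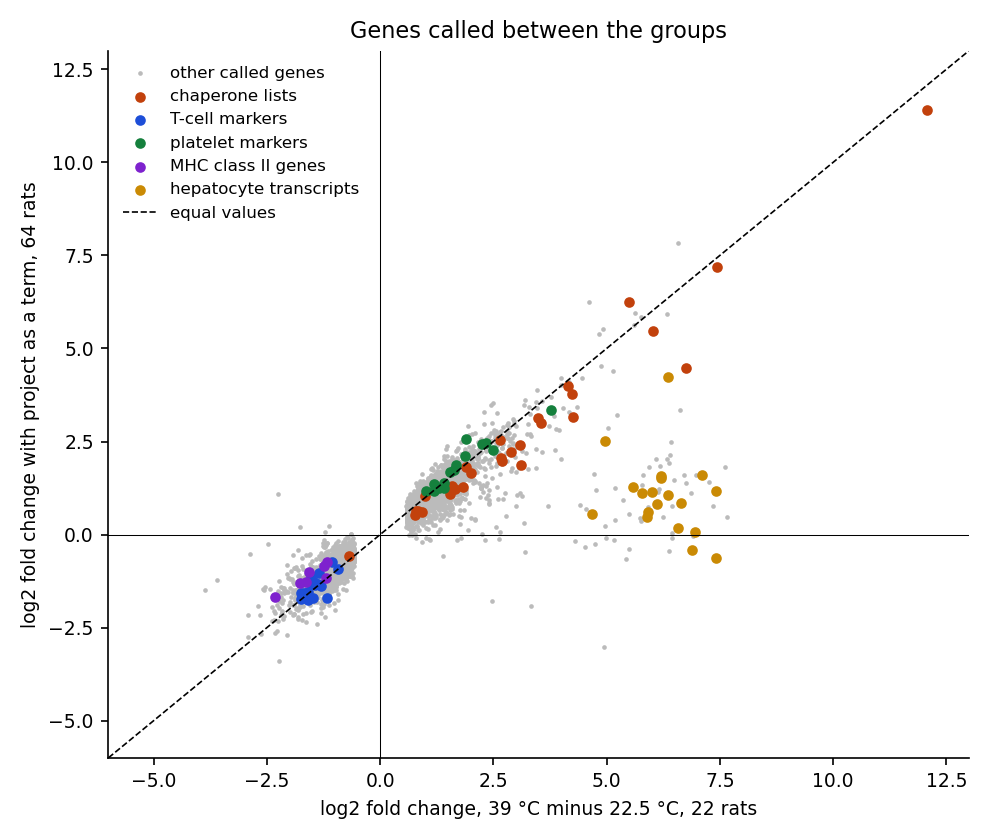
Each point is a gene called between the 39 °C and 22.5 °C rats, with the log2 fold change among the 22 rats on the x axis and that from the fit over 64 rats with sequencing project as a term on the y axis. Chaperone, T-cell and platelet genes lie along the dashed line of equal values, whereas the called hepatocyte transcripts lie below it, all but Alb and Cyp2e1 at project-term values from -0.63 to 1.61.

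Summed over the Hsp70, J-domain and Hsp90 lists, chaperone transcripts were higher in all 16 rats at 39 °C than in any control. Within the 4 chaperone lists the stress-inducible Hsp70 and the Hsp110 had the largest fold changes. Among the Hsp70 and Hsp110 genes, 7 of 13 tested entries were called higher and 0 lower, with a median log2 fold change of 1.18 against -0.0047 over all genes tested. In the fit with project as a term 4 of 14 were called higher, both identifiers of Hspa8, Hspa1b and Hsph1. Hspa1b (ENSRNOG00000045654), the stress-inducible Hsp70 that is almost silent in unstressed cells, had 9 to 17.4 normalized counts in the 6 controls with a median of 11.6. In the 16 rats at 39 °C, its lowest value was 1444, its median 38930.2 and its highest 241386. The groups were far apart, and the lowest 39 °C rat, replicate 14, still lay above every control (log2 fold change 12.08, SE 1.28, adjusted p = 3.6e-06). Near-identical Hsp70 copies may share reads, so the value may pool the stress-inducible Hsp70 genes.

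Hsph1 (ENSRNOG00000000902), the Hsp110 that frees ADP from Hsp70 and holds unfolded proteins, was at 346 to 604 (median 435) in controls and at 14322 to 278023 (median 58358) at 39 °C. No 39 °C rat overlapped a control (log2 fold change 7.43, SE 0.72, adjusted p = 1.16e-06), and with project as a term the log2 fold change was 7.19 (adjusted p = 9.94e-06). The constitutive family member Hspa8, which serves unstressed cells, was listed under 2 identifiers, and both were called higher. At ENSRNOG00000009920, controls ranged from 9215 to 16157 and the 39 °C rats from 23917 to 175512 (log2 fold change 2.64, SE 0.39, adjusted p = 0.000144). At ENSRNOG00000032585, controls ranged from 36.5 to 192 and the 39 °C rats from 197 to 2139 (log2 fold change 3.11, SE 0.46, adjusted p = 0.000146). Neither identifier had an overlap between the groups. Hspa1l, an Hsp70 known mainly from the testis, was at 0 in all 6 controls and above 0 in 13 of 16 rats at 39 °C, with at most 52.4 normalized counts. Its call, and those of Hspa12a and Hspa13, did not hold in the fit with project as a term, where the log2 fold changes were 4.48 (adjusted p = 0.053), 1.23 (adjusted p = 0.362) and 0.64 (adjusted p = 0.344). The mitochondrial Hsp70 gene Hspa9 (log2 fold change 0.09, adjusted p = 0.761) and Hspa4 (0.62, adjusted p = 0.0517) did not pass the test.

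**Figure D2:**
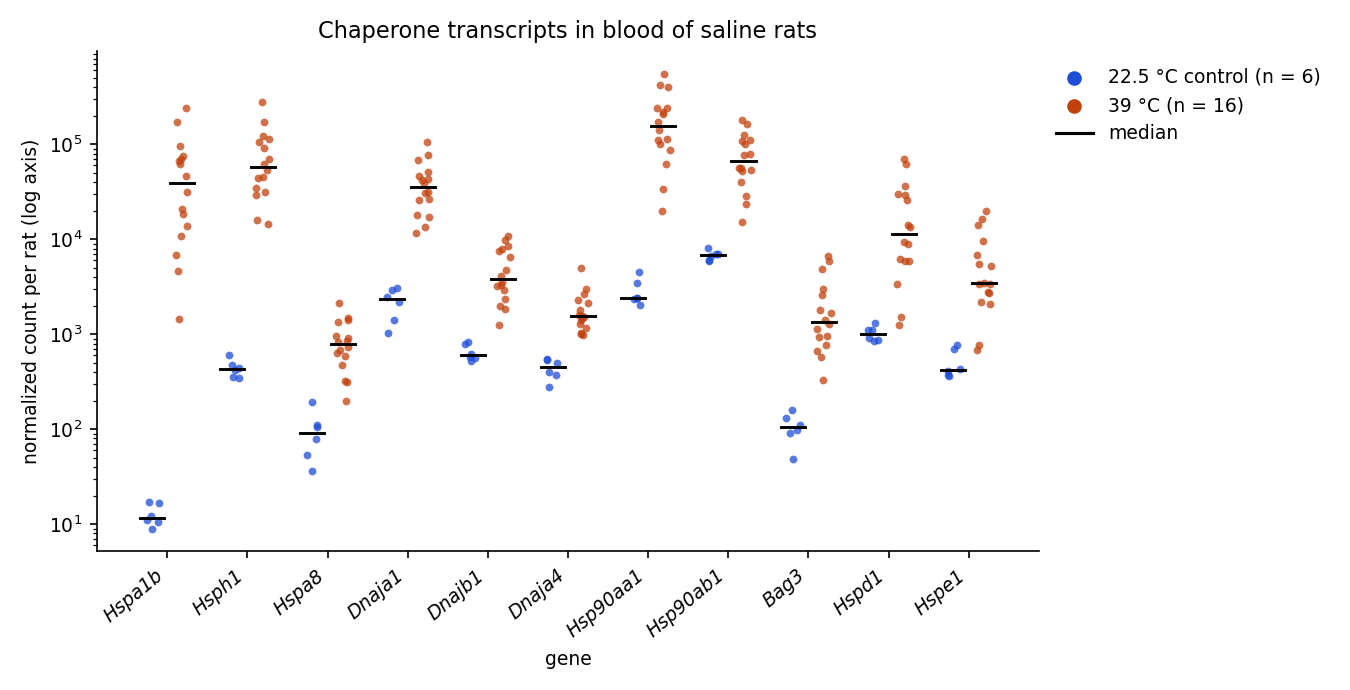
Normalized counts of 11 chaperone genes in each rat on a log axis (Hspa8 at ENSRNOG00000032585), with controls in blue, 39 °C rats in orange and the group medians as black lines. Apart from Hspd1 and Hspe1, no 39 °C rat overlapped a control in these genes.

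Of the 60 chaperone genes in the lists, 50 had a promoter in the RefSeq set of the GRCr8 build, 250 bases before to 50 bases after the start of the gene. A heat shock element, taken as the units GAA, TTC and GAA separated by NN, any 2 bases, or the reverse complement TTC, GAA and TTC with the same spacing, was searched on both strands. It was found in 267 of 33469 promoters (0.798%), in 6 of the 22 promoters of chaperone genes called higher and in 2 of the 28 promoters of the other chaperone genes. The windows below, with the element in capitals, are those of called genes whose element lies before the start, and show the element nearest to it. The Hspe1 window also holds the element of Hspd1, its neighbour transcribed in the opposite direction, at the same bases, and a second element that overlaps it by 8 bases. The Hsph1 element lies on chromosome 12, the Hspa8 element nearest to the start on chromosome 8 and the Hspe1 element on chromosome 9. Each window is read 5′ to 3′ on the plus strand of GRCr8, which is the strand of the gene.
Hsph1, chr12:10427307-10427367, element 36 bases before the start: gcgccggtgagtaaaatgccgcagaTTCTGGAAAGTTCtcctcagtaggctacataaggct
Hspa8, chr8:50080434-50080496, element 55 bases before the start: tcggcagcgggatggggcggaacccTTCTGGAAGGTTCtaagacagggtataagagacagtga
Hspe1, chr9:64084242-64084304, element 60 bases before the start: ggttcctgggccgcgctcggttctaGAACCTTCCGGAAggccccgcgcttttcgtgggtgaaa

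Among J-domain co-chaperones, which deliver clients to Hsp70 and trigger its ATPase, 4 of 15 genes were called higher and 1 lower. Dnaja1 was at 1032 to 3093 (median 2327) in controls and 11639 to 105419 (median 35364) at 39 °C (log2 fold change 4.15, SE 0.49, adjusted p = 1.6e-05). Dnajb1, the heat-inducible partner of Hspa1b, was at 518 to 820.4 (median 601) in controls and 1258 to 10790.2 (median 3831) at 39 °C. Its groups did not overlap (log2 fold change 2.88, SE 0.43, adjusted p = 0.000146), nor did those of Dnaja4 (log2 fold change 2.01, adjusted p = 0.000148). Dnajc2, which binds the ribosome, was the gene called lower (log2 fold change -0.68, adjusted p = 0.00126). The calls of Dnaja1, Dnajb1 and Dnaja4 held with project as a term, and those of Dnajb2 and Dnajc2 did not.

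In the list of Hsp90, its co-chaperones and the small heat-shock proteins, 13 of 23 genes were called higher and 0 lower, and 10 were called higher with project as a term. Hsp90aa1, the inducible cytosolic Hsp90, was at 2039 to 4535 (median 2387) in controls and at 19857 to 556242 (median 155926) at 39 °C (log2 fold change 6.03, SE 0.69, adjusted p = 1.24e-05). Hsp90ab1, the constitutive form, was at 5931 to 8051 (median 6820) and 15342 to 178760 (median 66873), also without overlap (log2 fold change 3.48, SE 0.47, adjusted p = 6.12e-05). Bag3, which couples Hsp70 to autophagy, had 48.2 to 159 (median 105) in controls and 327 to 6637 (median 1349) at 39 °C (log2 fold change 4.27, SE 0.65, adjusted p = 0.000158). Hspb1, a small heat-shock protein that keeps unfolded proteins soluble, lay between 0 and 57 in controls and between 11.6 and 2768 at 39 °C. For that gene, 15 of 16 rats at 39 °C were above every control (log2 fold change 5.49, SE 1.15, adjusted p = 0.00154). Transcripts of the heat shock factors themselves did not pass the test, with log2 fold changes of -0.15 for Hsf1 (adjusted p = 0.544) and -0.04 for Hsf2 (adjusted p = 0.868).

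The mitochondrial pair Hspd1 and Hspe1, which encode Hsp60 and Hsp10, both rose. Hspd1 was at 842 to 1301 (median 1009) in controls and 1258 to 70402 (median 11359) at 39 °C, with 15 of 16 rats above every control (log2 fold change 4.23, SE 0.80, adjusted p = 0.000804), and Hspe1 had 14 of 16 rats above every control (log2 fold change 3.54, SE 0.66, adjusted p = 0.000704). Of the 8 subunits of the cytosolic TRiC chaperonin, which folds actin and tubulin, Cct3 alone was called (log2 fold change 0.79, SE 0.22, adjusted p = 0.00975), and it was not called with project as a term. All 8 had log2 fold changes above 0, from 0.25 to 0.79. Without the 2 controls above 5000 Mb counts, the 4 chaperone lists had 7, 3, 14 and 4 genes called higher, in the order given here.

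Protein disposal changed in few genes. Of 33 proteasome and polyubiquitin genes, 4 were called higher and 0 lower, which is near the share of all genes called higher. UBB, a polyubiquitin gene, rose (log2 fold change 1.64, adjusted p = 0.00813), with 12 of 16 rats above every control. Psmd4, a ubiquitin receptor of the proteasome, and Psmd8 were the subunits called, with log2 fold changes of 1.36 and 1.08, and the other 29 subunits did not pass. With project as a term 3 genes of the list were called higher, as without the 2 controls above 5000 Mb counts, and Psmd8 was called in neither. The calls of UBB, Psmd4 and Psmd8 were lost with only controls 17 to 19 and with only controls 20 to 22. Zfand2a, which binds the proteasome in stressed cells, was at 124 to 290.1 (median 145) in controls and 1172 to 51886 (median 6679.7) at 39 °C without overlap (log2 fold change 6.34, SE 0.94, adjusted p = 0.000146).

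Among genes of endoplasmic reticulum stress, 11 of 21 were called higher and 0 lower. Trib3, a pseudokinase induced by the unfolded protein response, had 17 to 47.2 (median 24.6) in controls and 84.8 to 633 (median 161) at 39 °C without overlap (log2 fold change 2.66, SE 0.41, adjusted p = 0.000164). DDIT3, which encodes the transcription factor CHOP, was above every control in 15 of 16 rats (log2 fold change 1.70, SE 0.32, adjusted p = 0.000749). The lumenal chaperone Hspa5 was higher by 0.99 on the log2 scale (adjusted p = 0.0068), and 10 of 16 rats lay above every control. With project as a term 4 genes of the list were called, namely Trib3, DDIT3, Atf4 and Atf6, and without the 2 controls above 5000 Mb counts 4 were called. Leaving out the 39 °C replicates 2, 9 and 12 gave 7 called higher.

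Both cold-inducible RNA-binding protein genes, whose transcripts are known to increase on mild cooling, fell. Cirbp was at 354 to 748 (median 474) in controls and 59.9 to 633 (median 152) at 39 °C, with 14 of 16 rats below every control (log2 fold change -1.41, SE 0.39, adjusted p = 0.00913). Rbm3 was at 1892 to 2876 (median 2097) in controls and 397 to 2410.4 (median 929) at 39 °C, with 13 of 16 rats below every control (log2 fold change -1.10, SE 0.29, adjusted p = 0.00709). Neither call held with project as a term, where the log2 fold changes were -1.28 (adjusted p = 0.0802) and -0.56 (adjusted p = 0.413).

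Immediate early transcription factors, which cells transcribe within minutes of a stimulus, were called higher in 15 of 20 genes and lower in 0. The fit with project as a term called 10 higher. Jun, a subunit of AP-1, was at 28 to 140.3 (median 73.2) in controls and 192 to 4361 (median 897) at 39 °C without overlap (log2 fold change 4.17, SE 0.70, adjusted p = 0.000317). Atf3, a stress-responsive repressor, was above every control in 14 of 16 rats (log2 fold change 3.48, SE 0.74, adjusted p = 0.00173), and the AP-1 subunits Fosl1 and Fosb in 13 of 16 each, with log2 fold changes of 4.05 and 3.57. Klf2 (log2 fold change -0.57, adjusted p = 0.158) and Myc (-0.52, adjusted p = 0.0368) had values below 0 and were not called, Myc because its fold change was too small. Control replicate 19 had the highest summed level of this list among controls, 10008 normalized counts, and 10 of 16 rats at 39 °C lay above it.

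Metallothionein and Nrf2 antioxidant genes were called higher in 15 of 19 and lower in 0, with a median log2 fold change of 1.26. Hmox1, the inducible heme oxygenase, was at 84.3 to 295 (median 189.9) in controls and 505 to 15884 (median 1694) at 39 °C (log2 fold change 4.17, SE 0.75, adjusted p = 0.000546). SRXN1, which repairs peroxiredoxins, was at 6.33 to 12.1 (median 7.72) and 25.4 to 676 (median 133) (log2 fold change 4.45, SE 0.68, adjusted p = 0.000163). Both were free of overlap, as was Akr1b8, an aldo-keto reductase that was at 15.7 to 93.5 (median 32.7) in controls and 183 to 5847 (median 1597) at 39 °C (log2 fold change 5.63, SE 0.71, adjusted p = 3.1e-05). Osgin1 was above every control in 15 of 16 rats (log2 fold change 2.71, adjusted p = 0.000642), its highest control being replicate 19 at 666. The metallothionein gene Mt2A passed with a log2 fold change of 3.46 (adjusted p = 0.0299), although 7 of 16 rats lay above every control. The 39 °C replicates 2, 9 and 12, high in liver transcripts, had 826, 2684 and 1408 normalized counts. Replicate 16 had 1167, and the 39 °C median was 88.5. The Mt2A call was lost in 12 of 39 alternatives. Among them were the comparison without replicates 2, 9 and 12 and the fit with project as a term at 3.40 (adjusted p = 0.127). That fit called 8 genes of the list higher, or 5 without the rats of the series above 5000 Mb counts, and the comparison of the 22 rats without the 2 controls above 5000 Mb counts called 9.

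Hypoxia and glycolysis genes were called higher in 16 of 23 and lower in 0. Egln3, an oxygen sensor that marks HIF for destruction, was at 211 to 321 (median 226) in controls and 224 to 1823 (median 876) at 39 °C (log2 fold change 1.97, SE 0.30, adjusted p = 0.000167). Vegfa, the growth factor of blood vessels, was above every control in 15 of 16 rats (log2 fold change 1.61, SE 0.30, adjusted p = 0.000762). Hk2, the inducible hexokinase (log2 fold change 1.95, SE 0.51, adjusted p = 0.00651), and the glucose transporter gene Slc2a1 (log2 fold change 1.77, SE 0.42, adjusted p = 0.00349) rose with more overlap, 9 and 12 of 16 rats lying above every control. With project as a term 7 of 24 were called higher, Egln3, Hk2 and Vegfa among them, and 2 without the rats of the series above 5000 Mb counts. Leaving the 2 controls above 5000 Mb counts out of the 22 rats gave 10 called higher.

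Glucocorticoid-responsive genes were called higher in 7 of 18 entries and lower in 0, and 1 was called higher without the 2 controls above 5000 Mb counts. Sgk1 (log2 fold change 0.73, adjusted p = 0.0113) and Irs2 (0.94, adjusted p = 0.0213) were among the genes called higher. They were the 2 called with project as a term, at 0.87 (adjusted p = 0.0433) and 1.16 (adjusted p = 0.0251). Neither was called without the 2 controls above 5000 Mb counts. The classical targets Fkbp5 (log2 fold change -0.15, adjusted p = 0.697) and Tsc22d3 (-0.45, adjusted p = 0.162) did not pass. Of 14 circadian clock genes tested, 2 were called higher and 3 lower, against 15.0% and 13.8% of all genes tested. Csnk1e, a kinase that marks the PER proteins for turnover, was at 188 to 351.4 (median 246) in controls and 351.5 to 1212 (median 636) at 39 °C (log2 fold change 1.42, SE 0.22, adjusted p = 0.000185). These ranges did not overlap but nearly touched. The clock output gene Dbp fell by 0.76 on the log2 scale (adjusted p = 0.0238), and with project as a term its log2 fold change was -0.96 (adjusted p = 0.0351).

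Inflammatory cytokine and NF-kB feedback genes were called higher in 11 of 19 and lower in 1, which was Ccl5, a chemokine of T cells (log2 fold change -1.02). Nos2, the inducible nitric oxide synthase, was listed under 2 identifiers. At ENSRNOG00000011023 it was at 170.0 to 2086 (median 455) in controls and 1120.5 to 21944 (median 2933) at 39 °C (log2 fold change 2.82, SE 0.74, adjusted p = 0.00673), and the second identifier had a log2 fold change of 3.45. The highest control at ENSRNOG00000011023 was replicate 19. Ptgs2, the inducible cyclooxygenase, was above every control in 15 of 16 rats (log2 fold change 3.20, SE 0.67, adjusted p = 0.00158). Il6 (log2 fold change 0.54, adjusted p = 0.569) and Tnf (0.17, adjusted p = 0.753) did not pass. The comparison without the 2 controls above 5000 Mb counts called 6 higher and 1 lower, and the fit with project as a term 6 of 21 higher. With only the control replicates 20 to 22, 6 of these genes were called higher, and with only the replicates 17 to 19 edgeR called 0 higher (11 at an unadjusted p below 0.05).

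Of 22 interferon-stimulated genes tested, 2 were called higher and 5 lower, against 15.0% and 13.8% of all genes tested. Rsad2, the antiviral enzyme viperin, was at 16873 to 31484 (median 25747) in controls and 1741 to 18569 (median 5609.6) at 39 °C, with 15 of 16 rats below every control (log2 fold change -2.05, SE 0.31, adjusted p = 0.000167). The antiviral GTPase genes Mx1 (log2 fold change -1.85, SE 0.32, adjusted p = 0.000359) and Mx2 (log2 fold change -1.87, SE 0.29, adjusted p = 0.000167) had 14 and 13 of 16 rats below every control. Mx1 was the member called with project as a term, at -1.65 (adjusted p = 0.0346), and Rsad2 was not, at -1.07 (adjusted p = 0.216).

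**Figure D3:**
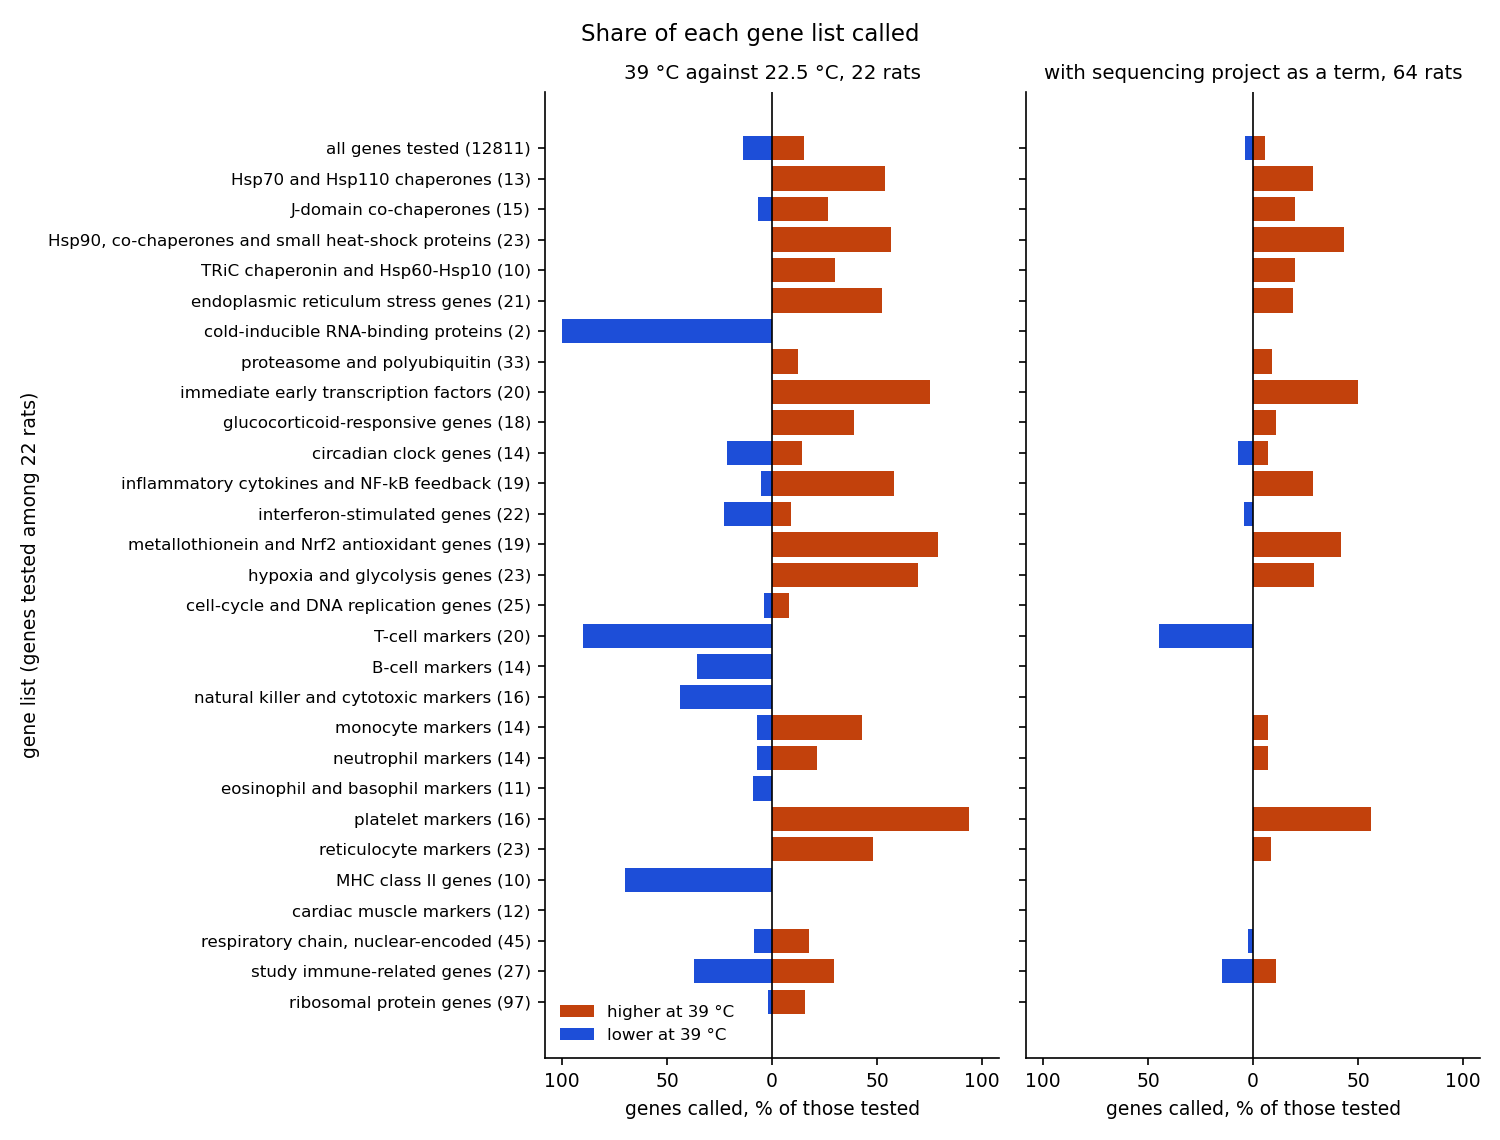
Percentage of the tested genes of each list called higher (orange) or lower (blue) at 39 °C, among the 22 rats on the left and with sequencing project as a term over 64 rats on the right. The top bars show all genes tested, 15.0% higher and 13.8% lower on the left, and the T-cell and platelet lists reach the furthest in either direction among the lists of cell markers.

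T-cell transcripts were lower at 39 °C. Of 20 T-cell markers, 18 were called lower and 0 higher, all 20 had log2 fold changes below 0, and the median was -1.47. Cd3e, a chain of the T-cell receptor complex, was at 1155 to 2121 (median 1436) in controls and 116 to 1157 (median 344) at 39 °C, with 15 of 16 rats below every control (log2 fold change -1.68, SE 0.39, adjusted p = 0.00324). Cd3g was below every control in all 16 rats (log2 fold change -1.75, SE 0.38, adjusted p = 0.00214), and Cd2, an adhesion receptor of T cells, in 15 (log2 fold change -1.60, SE 0.28, adjusted p = 0.000463). Lef1 and Il7r were the 2 members that did not pass, at -0.97 (adjusted p = 0.071) and -0.64 (adjusted p = 0.093). Summed over the list, controls had 20880.2 to 31776 normalized counts and 39 °C rats 4668 to 21079, and replicate 14 was the 39 °C rat within the control range. With project as a term 9 were called lower, or 18 without AMPH replicate 17 and control replicate 19, and 2 without the rats of the series above 5000 Mb counts.

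Other lymphocyte lists fell in part. Among B-cell markers 5 of 14 were called lower and 0 higher, led by Fcer2, the low-affinity IgE receptor (log2 fold change -1.87, SE 0.41, adjusted p = 0.00199). Among natural killer and cytotoxic markers 7 of 16 were called lower and 0 higher. Gzmk, a granzyme of cytotoxic T cells, was at 506 to 1500.2 (median 1305) in controls and 176 to 1201 (median 345) at 39 °C (log2 fold change -1.47, SE 0.33, adjusted p = 0.00273). Of the 10 genes of MHC class II antigen presentation, 7 were called lower. RT1-Ba, an alpha chain of the rat class II molecule, was below every control in 14 of 16 rats (log2 fold change -1.76, SE 0.29, adjusted p = 0.000296), and RT1-Da in 12 (log2 fold change -1.63, SE 0.28, adjusted p = 0.000395). Control replicate 19 had the lowest summed B-cell and class II levels of the controls, at 6792 and 26046 normalized counts. With project as a term, edgeR called 0 genes in each of these 3 lists, and at an unadjusted p below 0.05 there were 0 of the B-cell, 1 of the natural killer and 5 of the class II genes. The same fit without AMPH replicate 17 and control replicate 19 called 1 B-cell, 2 natural killer and 6 class II genes lower. Among the 22 rats without the 2 controls above 5000 Mb counts these numbers were 2, 8 and 6, and without control replicate 19 there were 8 B-cell genes called lower.

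Platelet transcripts were higher at 39 °C. Of 16 platelet markers 15 were called higher, all 16 had log2 fold changes above 0, and the median was 1.58. Thbs1, thrombospondin of the alpha granules, was at 68 to 461 (median 217) in controls and 594 to 10252 (median 2175) at 39 °C (log2 fold change 3.77, SE 0.68, adjusted p = 0.00055). Ppbp, a chemokine released on platelet activation, was at 60 to 195 (median 96.8) and 320.3 to 2041 (median 561) (log2 fold change 2.49, SE 0.38, adjusted p = 0.00017). Neither gene had an overlap between the groups. Tubb1, the tubulin of platelets and megakaryocytes, was above every control in 15 of 16 rats and Itgb3, a fibrinogen receptor subunit, in 12, with log2 fold changes of 2.26 and 2.35. Selp was the member that did not pass (1.22, adjusted p = 0.0651). The fit with project as a term called 9 higher, and without the 2 controls above 5000 Mb counts 14.

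Myeloid lists changed less evenly. Among monocyte markers 6 of 14 were called higher and 1 lower, the leukocyte sialoglycoprotein gene Spn. Cd14, the endotoxin co-receptor, was at 81.8 to 479 (median 244) in controls and 101 to 4206 (median 961) at 39 °C (log2 fold change 2.31, SE 0.72, adjusted p = 0.0174), while Cd163 (-0.01, adjusted p = 0.994) and Csf1r (0.22, adjusted p = 0.604) did not pass. The fit with project as a term called 1 monocyte marker higher and 0 lower (6 at an unadjusted p below 0.05 in either direction), and the comparison without the 2 controls above 5000 Mb counts 2 higher and 1 lower. Cd14 was called in neither, with log2 fold changes of 1.76 (adjusted p = 0.121) and 2.30 (adjusted p = 0.0664). Among neutrophil markers 3 of 14 were called higher and 1 lower, the myeloperoxidase gene Mpo, against 15.0% and 13.8% of all genes tested. Mpo was at 0.487 to 76.5 (median 19.2) in controls and 0 to 30.9 (median 6.14) at 39 °C, with 2 of 16 rats below every control. The Mpo call was lost with project as a term (adjusted p = 0.302), without control replicate 19 and without control replicate 21. Csf3r, the G-CSF receptor, was at 3163 to 19088 (median 5093) in controls, replicate 19 being the highest, and at 8289 to 34181 (median 21275) at 39 °C (log2 fold change 1.54, SE 0.36, adjusted p = 0.00305). The granule genes S100a8 (-0.35, adjusted p = 0.565) and S100a9 (0.14, adjusted p = 0.814) did not pass. In the fit with project as a term 1 neutrophil marker was called higher, and 8 of 14 were without AMPH replicate 17 and control replicate 19. With only the 6 rats of the largest 39 °C project edgeR called 0 (3 at an unadjusted p below 0.05). Among 11 eosinophil and basophil markers 0 were called higher and 1 lower, against 15.0% and 13.8% of all genes tested. The gene called was the chemokine receptor gene Ccr3 (log2 fold change -1.15), with 4 of 16 rats at 39 °C below every control. Its call was lost in 23 of 39 alternatives. With project as a term edgeR called 0 of 13 markers (1 at an unadjusted p below 0.05). Without the 2 controls above 5000 Mb counts it called 0 of 11 (also 1 at an unadjusted p below 0.05). The study examined immune-related leukocyte genes in control and AMPH rats, some of them rats of this series. Of 27 such entries, 8 were called higher and 10 lower, against 15.0% and 13.8% of all genes tested. With project as a term 3 were called higher and 4 lower, and without the 2 controls above 5000 Mb counts 4 and 7. Arg1, among the 8, had 777, 270 and 481 normalized counts in the 39 °C replicates 2, 9 and 12, high in liver transcripts. It had at most 105 in the other 39 °C rats, and its call was lost without these 3 replicates.

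**Figure D4:**
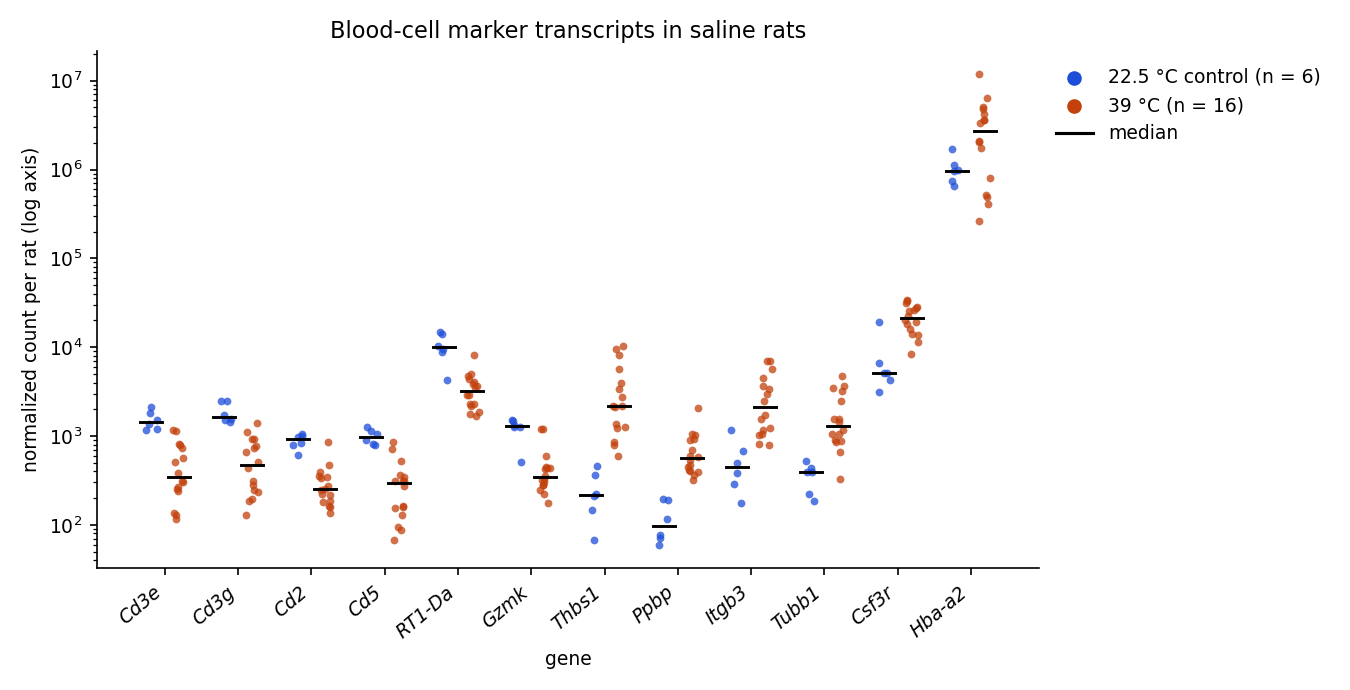
Normalized counts of 12 blood-cell transcripts in each rat on a log axis, with controls in blue, 39 °C rats in orange and the group medians as black lines. The T-cell genes Cd3e, Cd3g, Cd2 and Cd5 lie lower and the platelet genes Thbs1, Ppbp, Itgb3 and Tubb1 higher at 39 °C, while Hba-a2 spreads far beyond the control range in both directions.

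Red-cell transcripts varied widely between the 39 °C rats. Hemoglobin genes, which the globin depletion had reduced before sequencing, took 2.85% to 33.3% of the counts at 39 °C (median 13.8%) and 6.62% to 12.1% in controls (median 9.12%). The 39 °C replicates 1 to 4 lay below every control and 10 others above, and the difference in mean log2 share, 0.25, was within the spread between rats (two-sided exact permutation test over 74613 splits, p = 0.564). With only the 4 rats at 39 °C whose IDs begin with ML or JB, Hba2 and Hba-a2 had log2 fold changes below 0. Whether the hemoglobin share follows rat ID or sequencing project was not tested. Within the reticulocyte list 11 of 23 entries were called higher and 0 lower, and 3 without the 2 controls above 5000 Mb counts. Tfrc, the transferrin receptor of red-cell precursors and dividing cells, had a median of 559 in controls and 2223 at 39 °C, with 14 of 16 rats above every control (log2 fold change 2.35, SE 0.57, adjusted p = 0.00402). The Tfrc call was lost with project as a term, with only controls 17 to 19 and with only controls 20 to 22. It was also lost with only the ML and JB rats.

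Ribosomal protein genes took 4.66% to 9.18% of the counts at 39 °C (median 6.24%) and 6.04% to 8.44% in controls (median 7.74%), a log2 difference of -0.30 (exact permutation p = 0.0157, 0.0314 after adjustment over the 2 shares compared). As shares of the counts other than hemoglobin the difference was -0.24 (exact permutation p = 0.0894), and without the 2 controls above 5000 Mb counts it was -0.24 (exact permutation p = 0.0974). In the edgeR test, the median log2 fold change of the single genes had the opposite sign, at 0.36 with 72 of 97 above 0. In that test 15 were called higher and 2 lower, near the 15.0% of all genes called higher. Without control replicate 19, 3 were called higher, without the 2 controls above 5000 Mb counts 2, and with project as a term edgeR called 0 of 100, of which 22 had an unadjusted p below 0.05. DESeq2's Wald test among the 22 rats called 28 higher and 1 lower. Nuclear genes of the respiratory chain were called higher in 8 and lower in 4 of 45, and cell-cycle genes higher in 2 and lower in 1 of 25, with shares near or below those over all genes.

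Transcripts of hepatocytes were high in 3 of the 16 rats at 39 °C. This list of 20 genes was written after their values had been seen, so its values are a description. Summed over the list, the 39 °C replicates 12, 2 and 9 held 4449, 7606 and 11868 CPM, the other 13 rats at 39 °C 1.05 to 66.7 CPM and the 6 controls 1.27 to 123 CPM, replicate 21 being the highest control. Alb, the albumin gene, was at 97189, 76667 and 111271 normalized counts in the 39 °C replicates 2, 9 and 12. It was at most 1189 in the other 39 °C rats and at most 1254 in the controls. Fga, the fibrinogen alpha chain gene, was at 3537, 33789 and 7561 in these 3 rats and at most 82.4 in the other 39 °C rats. Apob, the main protein of very-low-density lipoprotein, was at 1989, 5979 and 2312. Among the 22 AMPH rats at 22.5 °C, 7 held more than 500 CPM of the list, with a highest value of 5330 CPM, and none of the AMPH rats in the cool environment and none of the cool saline rats did, at most 117 CPM.

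Of the 20 genes, 19 were called higher among the 22 rats, and 1 of the 15 that could still be tested without these 3 rats. With project as a term edgeR called 0, with 0 at an unadjusted p below 0.05. Of the 92 genes called higher with a log2 fold change of at least 4, 28 were called without these rats and 61 could still be tested. Over all genes, leaving out the 3 rats gave 2012 genes called higher and 1996 lower. Cardiac muscle markers, tested because blood was drawn through the heart, were called in 0 of 12 genes by edgeR (2 at an unadjusted p below 0.05, 1 called lower by DESeq2's Wald test), with summed levels of 144 to 29795 normalized counts at 39 °C and 72 to 32889 in controls. Replicate 12, which held liver transcripts, was also the highest 39 °C rat in cardiac markers, and without replicates 2, 9 and 12 all 9 cardiac genes that could be tested were called lower. Without the 2 controls above 5000 Mb counts the direction turned: 8 of 8 tested cardiac genes had log2 fold changes above 0, with a median of 3.78 against -1.94 among the 22 rats, and edgeR called 0 (0 at an unadjusted p below 0.05).

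Beyond the lists, the genes called lower in which all 16 rats at 39 °C lay below every control were led by Cpne7, a calcium-dependent membrane-binding protein. Cpne7 was at 104 to 246 (median 150.2) in controls and 1.83 to 76.1 (median 27.8) at 39 °C (log2 fold change -2.35, SE 0.43, adjusted p = 0.000556). Sv2b, a vesicle protein, followed at 113 to 354 (median 145) and 5.5 to 93.2 (median 29.9) (log2 fold change -2.35, SE 0.44, adjusted p = 0.000735). Cd96, a receptor of T and natural killer cells, was at 285 to 474 (median 373) and 36.6 to 240.1 (median 116), and Pik3ip1, an inhibitor of PI3 kinase that is abundant in resting T cells, at 773 to 1155 (median 975) and 76 to 592 (median 239), with log2 fold changes of -1.85 and -1.82. The other 6 genes of this group, Tmem204, Sytl1, Pafah1b3, Plscr2, Ap1s3 and Arpp21, had log2 fold changes from -2.27 to -1.77. Of the 10 genes, 9 were called lower with project as a term and Tmem204 was not (-1.90, adjusted p = 0.0506). Among the 10 genes called higher on the same rule, FCGR3 (ENSRNOG00000047772, 1 of 2 identifiers of this symbol), an IgG receptor, was the one whose call was lost with project as a term, at 3.34 (adjusted p = 0.236), after 0 to 28.1 normalized counts in controls and 60.1 to 2181 at 39 °C.

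The genes with the largest fold changes called in both fits also held Nat8l, which makes N-acetylaspartate, F3, the tissue factor that starts coagulation, and Gm6537. Nat8l was at 0.487 to 8.86 (median 3.03) in controls and 5.65 to 432 (median 133) at 39 °C (project-term log2 fold change 5.62, adjusted p = 0.000406). F3 was at 0.487 to 21.4 (median 10.3) and 5.78 to 1357 (median 91.9), with 14 of 16 rats above every control (project-term log2 fold change 5.53, adjusted p = 0.0155). Gm6537 was at 0.738 to 4.34 (median 3.13) and 3.74 to 579.6 (median 61.6) (project-term log2 fold change 4.39, adjusted p = 0.0109).

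The size of the chaperone rise differed widely between the 39 °C rats. Summed over the Hsp90 list, replicates 11 and 15 had 800095 and 653663 normalized counts and replicates 14 and 4 49909.9 and 71829, against 18692 to 26490.5 in controls. All 16 rats lay above every control in the summed Hsp70, J-domain and Hsp90 lists. Replicates 14 and 4, the lowest 2 in the Hsp70 and Hsp90 sums, had the highest 2 T-cell sums at 21079 and 19114 normalized counts, and replicate 11, the highest in chaperones, had 5044. Other rats went the other way. Replicate 3, with an Hsp70 sum of 275539, had a T-cell sum of 16047, and replicate 9, with 147031, had 4862. A link between the chaperone and T-cell sums was not tested. The 6 rats of the largest 39 °C project had Hsp90-list sums of 189078 to 800095, and the 10 rats of the other projects 49909.9 to 653663.

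**Figure D5:**
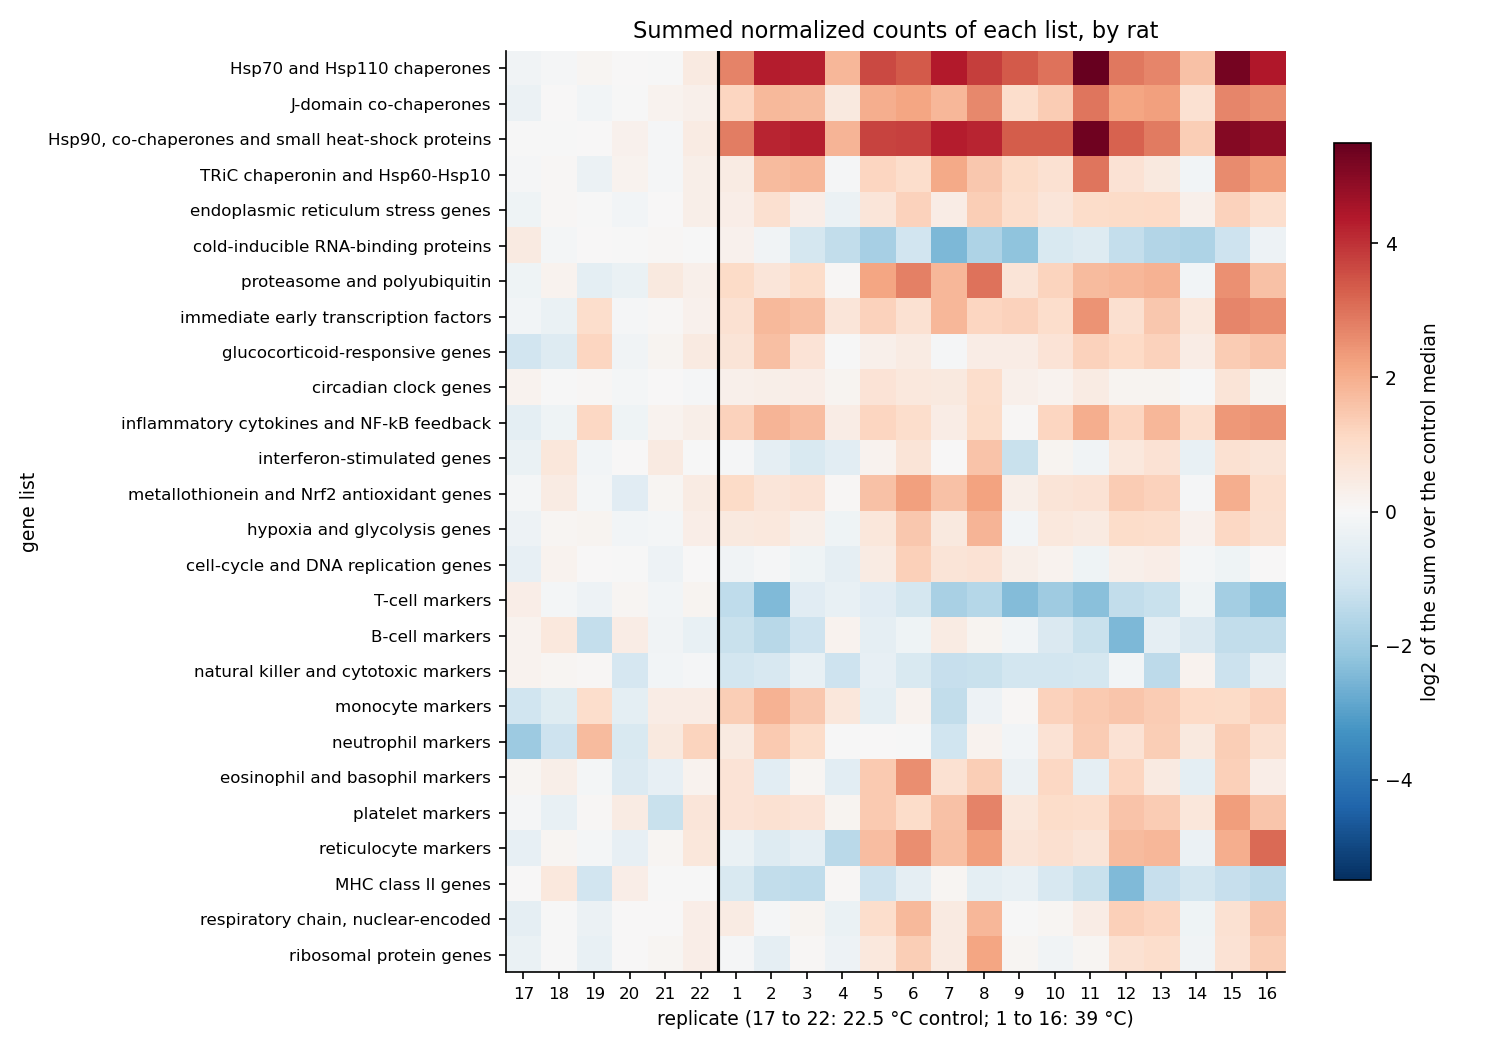
Each column is a rat, the 6 controls on the left and the 16 rats at 39 °C on the right, each row a gene list, and the colour is the log2 ratio of the rat's summed normalized counts to the control median. The Hsp70 and Hsp90 rows are red in all 16 rats at 39 °C and darkest in replicates 11 and 15, and in the T-cell row replicates 14 and 4 are the closest to the controls.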

How the data were processed

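Whole-blood RNA was sequenced as stranded, paired reads on an Illumina HiSeq 2000, and the authors deposited 1 table of RSEM expected counts per rat, made against rn5 (CASAVA 1.8.2, Bowtie 0.12.9 and RSEM 1.2.0 per the labels). The strand setting of the counting is not given in the sources used here, and no rn5 coordinates are printed. The expected counts were rounded to whole numbers, and the 17366 genes listed in all 22 files were kept, since the lists in the 64 files had 6 lengths from 18503 to 26405 genes.

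Genes that reached 10 counts in 6 or more of the 22 rats were tested with edgeR 4.0.16 (TMM, quasi-likelihood, Benjamini-Hochberg adjustment) in R 4.3.3, and were called at an adjusted p below 0.05 and a log2 fold change beyond 0.58. The fit with sequencing project as a term used all 64 rats. Project was read from a code in the file names. Normalized counts are counts divided by DESeq2 1.42.0 size factors, and DESeq2's Wald test was an alternative. Identifiers of 1 symbol with equal counts in every rat were taken as 1 entry. The fit of the 22 rats was tested on simulated data without project effects, and the fit with project as a term was not. No pair of libraries of the same group agreed within sampling noise, and pairs across the groups were not examined. P-values measure the spread between rats, and the fit of the 22 rats took rats of the same project as independent. Shares of counts were compared by exact permutation, two-sided. Promoters came from RefSeq (GRCr8).

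The genes named were the 10 called higher and 10 called lower with the most 39 °C rats beyond every control and then the largest fold change, the 10 with the largest project-term fold change among those called in both fits, up to 4 per list by size of change and genes that check the sample type. All these needed a mean of at least 100 normalized counts outside the lists. Other list members, mostly named because they were not called, and the hepatocyte transcripts were chosen after their values were seen. The members and lists were chosen with earlier results of these data known. A few list members are not reported here by name.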

Additional observations from a re-analysis of the deposited data

Results flagged for a closer look

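Among the 6 controls, 13 of the 117 values of named genes examined had a highest or lowest rat further from the rest than Dixon's 95% limit allows. Chance passes that limit in about 1 of 20 for independent, normally distributed values. The counts here were not log-transformed and the genes share the same 6 rats, so 13 of 117 cannot be set against that rate. Control replicate 19 was the highest in Csf3r (19088 normalized counts, the next control 6610), Osgin1 (666), Slc2a1 (414) and Zfand2a (290.1). Control replicate 20 was the highest in FCGR3 (28.1) and the lowest in Gzmk (506) and Klrd1 (756). Control replicate 22 was the highest in Hspa5 (4384) and Egln3 (321). Control replicate 17 was the highest in Sv2b (354) and Rbm3 (2876), and control replicate 18 in Mki67 (2288) and Epb42 (8232). The 39 °C group, with 16 rats, was too large for this check.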

How the results depend on the processing

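Numbers of genes called are given as higher and lower at 39 °C, against 1924 and 1767 among the 22 rats. They were 950 and 1147 without the 2 controls above 5000 Mb counts, 918 and 1123 without any rat above that limit, 308 and 636 with only controls 17 to 19, 742 and 698 with only controls 20 to 22, and 793 and 541 with project as a term. With only the 4 rats at 39 °C whose IDs begin with ML or JB they were 1145 and 865. The fit with project as a term gave 276 and 138 without any rat above 5000 Mb counts, 1715 and 1681 without AMPH replicate 17 and control replicate 19, and 356 and 189 with only 39 °C, control and AMPH rats at 22.5 °C. The ID split, these 3 project-term settings and the fit without 39 °C replicates 2, 9 and 12 were chosen after seeing the data. Leaving out each rat in turn gave 1404 to 2153 higher and 1253 to 1993 lower. Other normalizations, filters, tests and 39 °C projects stayed within 1.5 times the 2 counts. Of 113 named genes called, 38 were called under every alternative and 94 without each rat in turn. Over all alternatives, 4071 values of the named genes kept their direction and their call, 403 kept the direction but lost the call, 11 gained a call and 4 reversed. With only the ML and JB rats, the log2 fold changes of Hba2 and Hba-a2 were -1.31 and that of RPS29 -0.013, and with project as a term that of Arg1 was -0.17, all reversed. The hemoglobin share difference was -0.031 on the log2 scale with only the 10 rats outside the largest 39 °C project (exact permutation p = 0.951), and 0.14 to 0.38 without each rat in turn. The ribosomal share difference was -0.24 without hemoglobin counts (exact permutation p = 0.0894), -0.24 without the 2 controls above 5000 Mb counts (exact permutation p = 0.0974), and -0.37 to -0.27 without each rat in turn. The causes were not tested. No paired analysis was possible because the 39 °C rats and the controls share no replicate number.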
